A study of Nannochloropsis oceanica with 18 samples.

Results

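The genes of the TCA cycle and the mitochondrial respiratory chain were followed in Nannochloropsis oceanica IMET1, a marine microalga, after a drop in CO2. A gene was included when its annotation in the deposited tables contained any of 17 words that name enzymes of the cycle, the pyruvate dehydrogenase entry step, the respiratory complexes, alternative oxidase or ATP synthase. This gave 73 of 9756 genes. By annotation alone they fall into 6 genes of the pyruvate dehydrogenase complex, 4 pyruvate dehydrogenase kinases, 12 TCA cycle enzymes, 18 genes of complex I, 1 type 2 NADH dehydrogenase, 2 of complex III, 2 cytochromes c, 3 of complex IV, 2 alternative oxidases, 5 of ATP synthase and 8 assembly or biogenesis factors. Another 7 act on organic acids outside the cycle, and 3 were caught only because a word of the rule occurs in an unrelated name, among them g9470 and g9471, which encode a subunit of the chloroplast cytochrome b6-f complex. The annotations do not state the organelle of every product, so a mitochondrial place is a property of the names here and was not tested.

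All cells were of the strain IMET1, grown in continuous light and pre-cultured at 5% CO2 for 1 h in fresh medium. Cultures were then moved to 0.01% CO2 (very low CO2, VLC) or kept at 5% CO2 (high CO2, HC), and poly(A) mRNA was sequenced at 3, 6, 12 and 24 h. The VLC and HC courses share the 0 h samples, which were taken at 5% CO2 after the pre-culture. Each of the 9 groups has 2 libraries, which the labels call biological replicates and which came from 3 cultures per condition. Each culture was sampled at every time, so libraries of different times share cultures, and the tests against 0 h and between times treat them as independent.

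In mitochondria, pyruvate dehydrogenase converts pyruvate to acetyl-CoA, which citrate synthase passes into the TCA cycle, and pyruvate dehydrogenase kinase switches the complex off by phosphorylation. Electrons from the cycle enter the respiratory chain at complex I and at succinate dehydrogenase, run through complex III and cytochrome c to complex IV, and drive ATP synthase. Algae and plants also have an alternative oxidase, which takes electrons from ubiquinol straight to oxygen without pumping protons, and a second pyruvate dehydrogenase complex in the plastid that feeds fatty acid synthesis.

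Values are FPKM, that is, fragment numbers corrected for transcript length and for the size of the library. They give each gene's share of a library, so a change per cell and a change of all other mRNA cannot be told apart. The 73 genes held 1.46% to 1.93% of the summed FPKM of a library, and none of them was at 0 in any library. Replicates were close: among genes of at least 10 FPKM, the median difference between the 2 libraries of a group was 0.0547 (HC at 6 h) to 0.2303 (HC at 3 h) on the log2 scale. Differences are log2 ratios of FPKM plus a pseudocount of 1, with the standard error (SE) and adjusted p of limma. Up- or downregulated here means at least 2-fold with an adjusted p of at most 0.05, and genes were tested where either group averaged FPKM of 10 or more. Overlap of VLC and HC libraries is given gene by gene, and its share over all genes was not counted. By the adjusted p alone, with no fold minimum, 79.9% of all genes passed in VLC/HC at 12 h and 64.5% at 24 h. At 12 h the median of all tested genes was itself shifted, to 0.58 in VLC/HC, and values from which that median was subtracted (against the median gene) are therefore given beside those as measured; at 3, 6 and 24 h it was -0.02, -0.06 and 0.09.

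Levels of the 73 genes spanned a wide range, with means over all libraries from 7.11 FPKM for g881, an acetyltransferase of the pyruvate dehydrogenase complex, to 1332 FPKM for the chloroplast gene g9471. Among the genes named for the respiratory chain or ATP synthase, ATP synthase subunit gamma (g9317, organelle not stated) averaged 462 FPKM. Cytochrome c g4013 averaged 430 FPKM and the 3 complex IV genes averaged 236 to 277 FPKM. The TCA cycle enzymes averaged 23.7 to 317 FPKM. Alternative oxidase g363 averaged 222 FPKM, against 29.7 FPKM for its relative g8794, and the 4 pyruvate dehydrogenase kinases averaged 23.2 to 50.5 FPKM.

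Few of these genes differed between VLC and HC in the first hours, more at 12 h and fewer again at 24 h. In VLC against HC, 4 of 67 tested members were upregulated at 3 h and none was downregulated (all genes: 0.969% called, 0.701% up). At 6 h it was 1 of 69, also up (all genes: 2.09% called, 1.84% up). At 12 h, 19 were upregulated and 1 was downregulated of 70 tested, or 28.6%, near the 32.0% over all genes (27.6% up, 4.36% down). At 24 h, 7 were upregulated and 2 downregulated of 72 tested, or 12.5%, against 17.2% over all genes (11.2% up, 5.95% down). The shares at 12 and 24 h were thus at or below those of the transcriptome as a whole. The median member stood at 0.51 at 12 h and at 0.02 at 24 h, next to 0.58 and 0.09 for all tested genes. Counted against the median gene, 6 members were upregulated and 4 downregulated at 12 h, or 14.3%, against 20.3% of all genes. At 24 h it was 6 and 2, or 11.1%, against 17.0%. Over the 4 times, 28 members were called at least once, 26 up and 2 down, and none in both directions. Against the median gene it was 18 members, 14 up and 4 down. The share of all genes called at least once was not counted. By the adjusted p alone, with no fold minimum (a rule chosen after seeing the data), 10 members passed at 3 h, 9 at 6 h, 57 at 12 h and 42 at 24 h, beside 14.8%, 12.2%, 79.9% and 64.5% of all genes.

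The minimum of 10 FPKM let some genes in through their VLC level alone, as their HC means were below it, so that their ratios lay above 0 by selection. At 12 h these were 12 members, of which g875, g1063, g8380, g7489, g7814, g4915, g5340, g4337, g7666 and g9039 were called and g7779 and g8348 were not. At 24 h they were g8794 and g7378, both called, and g875, which was not. At 3 h it was g7779 and at 6 h g8380 and g7814, none of them called. With a minimum of 1 FPKM all 73 members were tested, and the counts of called members were again 20 at 12 h and 9 at 24 h.

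**Figure D1:**
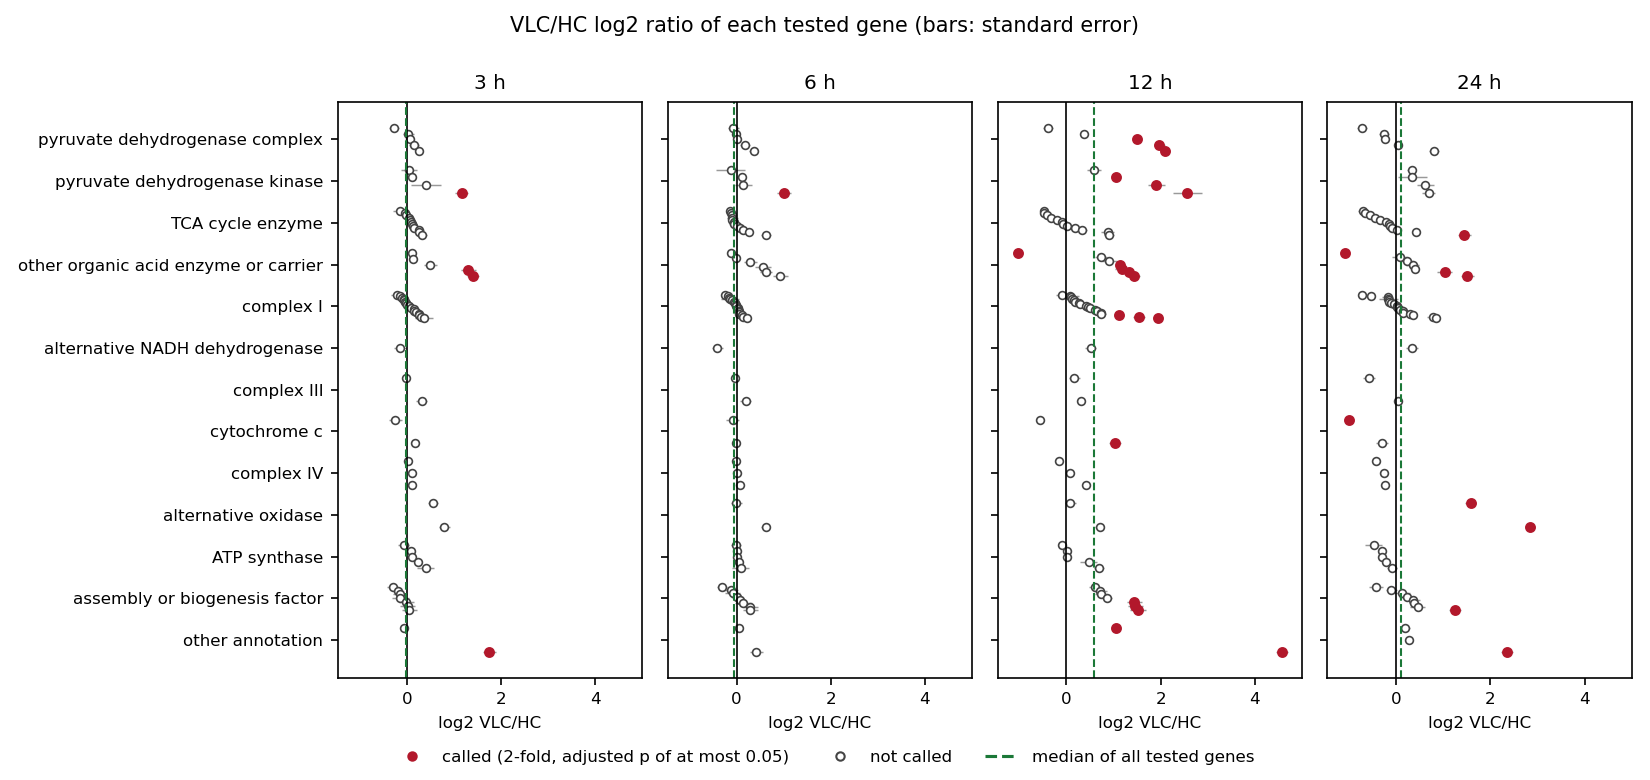
Log2 VLC/HC of each tested gene at 3, 6, 12 and 24 h, one point per gene in rows by role, with the standard error as a bar; the dashed line is the median of all tested genes. At 12 h the pyruvate dehydrogenase genes lie between -0.39 and 2.10, their kinases between 0.58 and 2.57 and the TCA cycle enzymes between -0.48 and 0.91, and at 24 h the alternative oxidases lie at 1.59 and 2.84.

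Pyruvate dehydrogenase held genes that moved far from their 0 h level. Their annotations do not say whether they belong to the mitochondrial complex, the entry to the cycle, or to that of the plastid. Pyruvate dehydrogenase g4805 (scaffold00140, positions 823845 to 828886 of the authors' assembly) stood at 1243 and 1327 FPKM at 0 h, second in the set at that time only to the chloroplast gene g9471. At 3 h it had 373 and 362 FPKM in VLC and 353 and 349 FPKM in HC. At 6 h it had 142 and 136 FPKM in VLC and 137 and 139 FPKM in HC. Up to this time the 2 courses ran close together, with log2 VLC/HC of 0.07 ± 0.09 at 3 h and 0.01 ± 0.09 at 6 h (SE).

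They parted at 12 h. Gene g4805 had 128 and 122 FPKM in VLC at 12 h, against 38.8 and 48.5 FPKM in HC. Its log2 VLC/HC was 1.51 ± 0.09 (SE, adjusted p = 2.3e-09), and 0.92 against the median gene, which is under 2-fold. Dihydrolipoamide acetyltransferase g946, annotated as an E2 component of pyruvate dehydrogenase, had 116 and 107 FPKM in VLC at 12 h, against 23.6 and 32.3 FPKM in HC, with a log2 VLC/HC of 1.97 ± 0.11 (SE, adjusted p = 2.8e-09). The third such gene, the acetyltransferase component g7814, had 29.7 and 29.5 FPKM in VLC, against 6.49 and 5.77 FPKM in HC, with a log2 VLC/HC of 2.10 ± 0.10 (SE, adjusted p = 7.7e-10). The VLC and HC libraries of these genes did not overlap, at a time when 79.9% of all genes passed the adjusted p alone. Genes g946 (1.39) and g7814 (1.52) stayed upregulated against the median gene.

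Against 0 h the same genes were downregulated in both courses, and further in HC. At 12 h against 0 h the log2 change of g946 was -2.96 ± 0.11 in VLC and -4.93 ± 0.11 in HC, and that of g4805 was -3.35 ± 0.09 in VLC and -4.86 ± 0.09 in HC (SE; limma, adjusted p at most 1.4e-11). For g7814 it was -0.76 ± 0.10 in VLC, short of 2-fold, and -2.86 ± 0.10 in HC. At 24 h the order had turned: g4805 had 193 and 207 FPKM in VLC, against 236 and 237 FPKM in HC, and g946 had 227 and 246 FPKM in VLC, against 282 and 285 FPKM in HC. Neither gene was called at 24 h, with log2 VLC/HC of -0.24 ± 0.09 for g4805 and -0.26 ± 0.11 for g946 (SE).

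The change of the CO2 effect between the times was tested directly. The log2 VLC/HC at 24 h minus that at 12 h was -1.75 for g4805 (adjusted p = 5.5e-08) and -2.23 for g946 (adjusted p = 7.9e-08), and passed the thresholds also against the median gene (-1.17 and -1.65). For g7814, at 43.8 and 43.1 FPKM in VLC and 25.0 and 23.8 FPKM in HC at 24 h, it passed as measured only, with -0.72 against the median gene.

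The remaining genes annotated to such a complex took another course. Pyruvate dehydrogenase g5342 had 118 and 115 FPKM in VLC at 12 h, against 160 and 145 FPKM in HC, and 52.3 and 47.6 FPKM in VLC at 24 h, against 81.1 and 85.9 FPKM in HC. Both VLC libraries were below both HC libraries at each of these times, but the log2 VLC/HC of -0.39 ± 0.11 and -0.73 ± 0.11 (SE) was under 2-fold. Pyruvate dehydrogenase g1751 lay between 50.9 and 72.3 FPKM in all 18 libraries, and g881 was too low to be tested at any time. Genes with 1 annotation therefore fell into differing patterns: g4805 and g5342 are both annotated as pyruvate dehydrogenase.

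The kinases that inactivate the complex did not share a course either. Gene g10046 (scaffold00354, positions 205825 to 207899) was very low at 0 h, at 1.90 and 1.92 FPKM. It had 22.1 and 25.5 FPKM in VLC at 3 h, against 11.01 and 9.12 FPKM in HC, and was upregulated with a log2 VLC/HC of 1.17 ± 0.14 (SE, adjusted p = 1.9e-04). At 6 h it had 40.9 and 60.4 FPKM in VLC, against 23.9 and 24.7 FPKM in HC, with a log2 VLC/HC of 1.00 ± 0.14 (SE, adjusted p = 2.5e-04). This 6 h value sat at the 2-fold limit and was below it without VLC replicate 2 (0.73) or without HC replicate 1 (0.98).

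Both courses of g10046 then ran far above the start. It reached 108 and 117 FPKM in VLC at 12 h and 77.5 and 71.6 FPKM in HC, which is 5.28 ± 0.14 and 4.70 ± 0.14 on the log2 scale against 0 h (SE; adjusted p = 6.0e-13 in VLC and 9.7e-13 in HC). At 24 h it had 96.6 and 97.6 FPKM in VLC, against 61.7 and 58.2 FPKM in HC, a log2 VLC/HC of 0.69 ± 0.14 (SE). The VLC libraries were above the HC libraries at all 4 times, while at 12 h the gene stood where the median gene stood (0.58 as measured).

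At 12 h the other 3 kinases were upregulated in VLC against HC, beside 27.6% of all genes. Gene g7489 had 29.4 and 30.9 FPKM in VLC, against 6.64 and 7.98 FPKM in HC, with a log2 VLC/HC of 1.91 ± 0.18 (SE, adjusted p = 2.7e-07). Gene g5340, annotated as isoform 2, had 19.0 and 16.7 FPKM in VLC, against 1.04 and 3.92 FPKM in HC, with a log2 VLC/HC of 2.57 ± 0.31 (SE, adjusted p = 3.8e-06). The HC libraries of g5340 differed from each other several-fold, and both were below the VLC libraries. Gene g5806 had 49.7 and 50.6 FPKM in VLC, against 22.2 and 25.4 FPKM in HC, with a log2 VLC/HC of 1.05 ± 0.09 (SE, adjusted p = 1.2e-07). Only g7489 (1.33) and g5340 (1.98) stayed past 2-fold against the median gene, and g5806 stood at 0.96 as measured without HC replicate 1. By 24 h no kinase was called in VLC/HC.

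**Figure D2:**
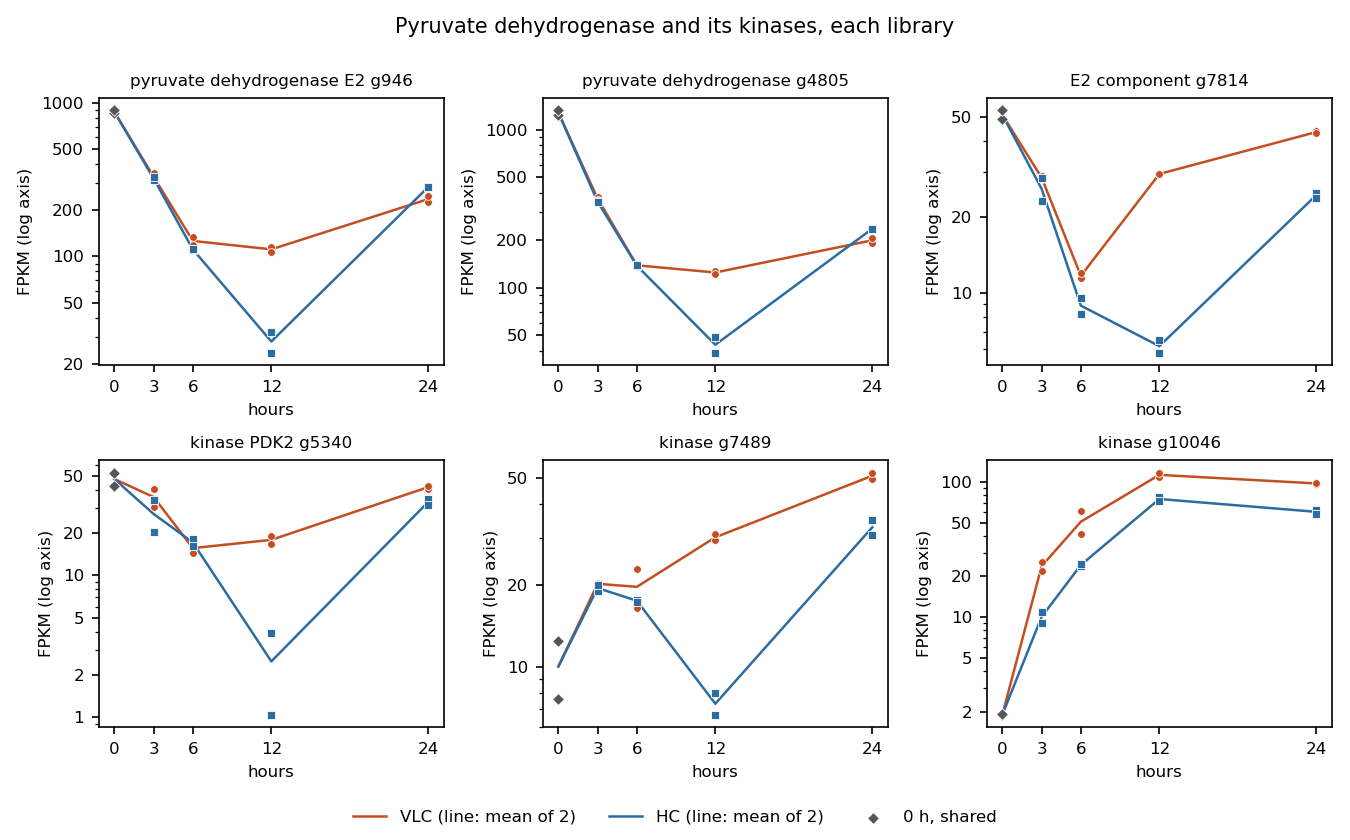
FPKM (log axis) of 3 pyruvate dehydrogenase genes and 3 of its kinases over 0 to 24 h, each point a library, lines through the means of the 2 libraries of VLC and of HC. The courses of g946, g4805, g7814 and g5340 part at 12 h, where the HC libraries dip, whereas g10046 climbs in both, reaching 108 and 117 FPKM in VLC and 77.5 and 71.6 FPKM in HC at 12 h.

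Many TCA cycle enzymes were called against 0 h and few between VLC and HC. At 12 h all 12 lay above their 0 h level in VLC and in HC. In VLC 8 of the 12 were upregulated against 0 h with a median log2 change of 1.08, and in HC 7 of the 12 with a median of 1.15. Over all genes, 28.8% were upregulated in VLC at 12 h against 0 h and 22.4% in HC, with medians of 0.15 and -0.52. With those medians subtracted, 5 of the 12 enzymes were upregulated in VLC (all genes: 25.6%) and 11 of the 12 in HC (all genes: 30.1%). Both comparisons use the same 0 h libraries.

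Succinate dehydrogenase, which is both a step of the cycle and complex II of the respiratory chain, led this group. Its iron-sulfur protein g1639 had 248 and 255 FPKM in VLC and 230 and 216 FPKM in HC at 12 h, against 40.8 and 35.7 FPKM at 0 h. The log2 change against 0 h was 2.69 ± 0.07 in VLC and 2.52 ± 0.07 in HC (SE, adjusted p = 5.9e-13 and 5.5e-13). The flavoprotein g1987 had 216 and 211 FPKM in VLC and 210 and 212 FPKM in HC at 12 h, against 50.3 and 49.9 FPKM at 0 h, and subunit 3 (g3543) had 128 and 126 FPKM in VLC and 171 and 168 FPKM in HC, against 40.9 and 43.4 FPKM at 0 h. All 3 subunits were upregulated against 0 h in both courses, and none was called in VLC/HC at any time. Fumarate hydratase class I (g750), the next enzyme of the cycle, showed a log2 change of 1.95 ± 0.11 in VLC and 2.04 ± 0.11 in HC (SE). The class II enzyme g8597, by contrast, was upregulated against 0 h in VLC (1.10) and stood at 0.19 in HC; its log2 VLC/HC at 12 h was 0.91 ± 0.11 (SE), which is the highest of the 12 enzymes and under 2-fold.

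Between VLC and HC at 12 h no TCA cycle enzyme was called (all genes: 32.0%), and the median of the 12 was -0.09, or -0.67 against the median gene. The lowest of the 12 were g7726 and g743, of the first steps of the cycle, while the other citrate synthase, g7378, lay higher in VLC than in HC. Citrate synthase g7726 had 267 and 274 FPKM in VLC at 12 h, against 378 and 373 FPKM in HC, and aconitate hydratase g743, which isomerizes citrate to isocitrate, had 338 and 349 FPKM in VLC, against 487 and 470 FPKM in HC. Neither pair overlapped, and as measured both ratios were under 2-fold, at -0.47 ± 0.06 for g7726 and -0.48 ± 0.07 for g743 (SE). Against the median gene both were downregulated, at -1.06 each.

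The same enzymes lay lower in VLC again at 24 h, where the median gene was near 0. Gene g7726 had 157 and 167 FPKM in VLC, against 258 and 255 FPKM in HC, and g743 had 233 and 244 FPKM in VLC, against 350 and 352 FPKM in HC. The log2 VLC/HC was -0.66 ± 0.06 for g7726 (adjusted p = 1.9e-07) and -0.55 ± 0.07 for g743 (adjusted p = 4.6e-06), under 2-fold in both. Succinyl-CoA ligase subunit alpha (g8620), which makes the ATP or GTP of the cycle, had 93.8 and 98.4 FPKM in VLC at 24 h, against 163 and 153 FPKM in HC, with a log2 VLC/HC of -0.71 ± 0.11 (SE). At 12 h g8620 had been higher in VLC, at 182 and 184 FPKM, against 154 and 138 FPKM in HC. Without any fold minimum, a rule chosen after seeing the data, 5 of the 12 enzymes were lower and 2 higher in VLC at 24 h, while 28.4% of all genes were lower and 36.1% higher.

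The second citrate synthase, g7378 (scaffold00259, positions 556232 to 558194), went the other way from g7726. It had 67.5 and 64.5 FPKM in VLC at 12 h, against 36.8 and 34.1 FPKM in HC, a log2 VLC/HC of 0.88 ± 0.14 (SE). At 24 h it had 26.1 and 28.6 FPKM in VLC, against 9.08 and 9.72 FPKM in HC, and was upregulated with a log2 VLC/HC of 1.45 ± 0.14 (SE, adjusted p = 4.5e-07). It entered that test through VLC alone, and with a minimum of 1 FPKM its adjusted p was 5.1e-07. It was the 1 TCA cycle enzyme called in VLC/HC at any time, and its libraries did not overlap at 12 or 24 h. At 24 h its level in HC was below 0 h (22.5 and 21.7 FPKM), a downregulation of -1.15 ± 0.14 on the log2 scale, while in VLC it was 0.29 ± 0.14 above (SE, not called). The files do not say in which compartment either citrate synthase works.

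**Figure D3:**
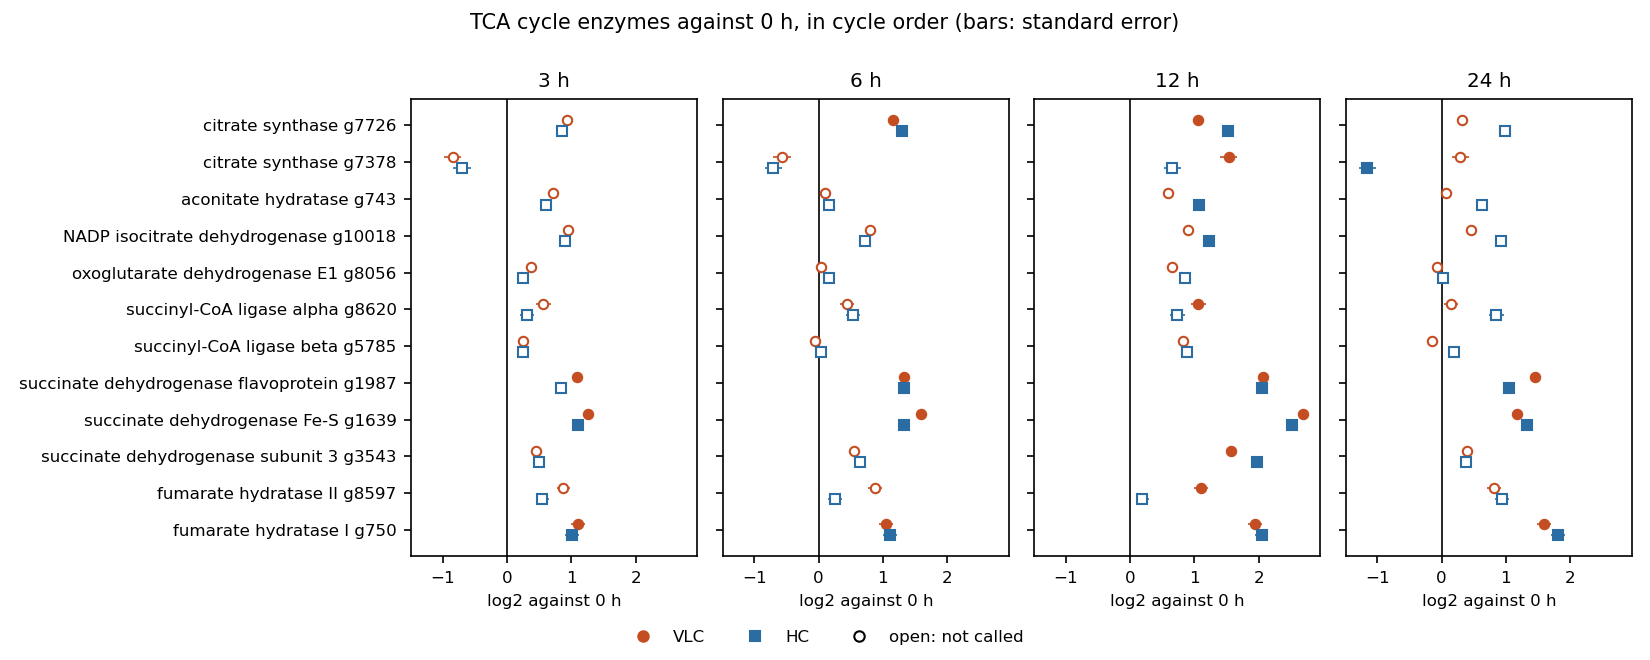
Log2 change against 0 h of the 12 TCA cycle enzymes in cycle order, for VLC and HC at 3, 6, 12 and 24 h, with the standard error as a bar and filled symbols for called genes. At 12 h every enzyme lies right of 0 in both courses, and at 24 h citrate synthase g7726 stands at 0.32 in VLC and 0.98 in HC.

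Genes of the related set complete this picture of the cycle. It holds 66 genes taken by words such as malate dehydrogenase, dihydrolipoamide, mitochondrial carrier and prohibitin, and also caught a few plastid proteins. At 12 h, 16 were upregulated and 2 downregulated in VLC/HC of 63 tested, or 28.6%, and at 24 h 8 and 1 of 63, or 14.3%. Both shares lay below the 32.0% and 17.2% of all genes. Against the median gene 6 were upregulated and 7 downregulated at 12 h, or 20.6%, beside 20.3% of all genes. The examples that follow were picked for their function after their values had been seen. Malate dehydrogenase g7798, the last step of the cycle, had 206 and 225 FPKM in VLC at 12 h, against 375 and 369 FPKM in HC, with a log2 VLC/HC of -0.78 ± 0.06 (SE), under 2-fold. Dihydrolipoamide dehydrogenase g163, the E3 component that 2-oxo acid dehydrogenase complexes use, had 100.1 and 89.2 FPKM in VLC, against 16.2 and 23.8 FPKM in HC, and was upregulated with a log2 VLC/HC of 2.21 ± 0.14 (SE, adjusted p = 6.0e-09). Its second gene g10137 stood at -0.15 ± 0.10 (SE, adjusted p = 0.19). Lipoic acid synthetase g7151, which makes the cofactor of E2, was upregulated at 1.65 ± 0.08 (SE, adjusted p = 9.3e-10). At 0 h g163 had 745 and 805 FPKM, above both courses at 12 h. At 24 h g163 had 214 and 235 FPKM in VLC, against 258 and 263 FPKM in HC. Of the 12 related genes with lipo in their annotation, which name lipoate and the enzymes that carry it, 4 were upregulated at 12 h (all genes: 27.6%). Against the median gene 3 were upregulated (all genes: 8.85%). None was downregulated either way (all genes: 4.36% as measured and 11.4% against the median gene). Those not called include the acetyltransferases g2921 (0.14) and g9319 (-0.03) and the lipoate ligase g6249 (-0.26), and the 12 ranged from -0.26 to 2.21. At 24 h 1 of the 12 was upregulated, both as measured (all genes: 11.2%) and against the median gene (all genes: 9.62%). At that time the 12 ranged from -0.29 to 3.05 as measured.

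Of the organic acid genes outside the cycle, the glyoxylate cycle gene and its neighbour were the earliest to separate. Isocitrate lyase (g8450), which splits isocitrate and bypasses the steps that release CO2, lies at positions 383859 to 386350 of scaffold00295, and 544 bases separate it from the succinate:fumarate antiporter g8451. Gene g8450 had 56.1 and 62.1 FPKM in VLC at 3 h, against 21.5 and 21.9 FPKM in HC, with a log2 VLC/HC of 1.40 ± 0.13 (SE, adjusted p = 1.3e-05). Gene g8451 had 31.0 and 37.1 FPKM in VLC at 3 h, against 14.1 and 12.2 FPKM in HC, with a log2 VLC/HC of 1.31 ± 0.16 (SE, adjusted p = 2.1e-04). Both were upregulated at 3 h with no overlap between the libraries; the libraries were not strand specific, so reads where neighbours overlap or run antisense cannot be told apart.

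Both genes had been near the bottom of the range at 0 h, at 6.70 and 5.16 FPKM for g8450 and 7.39 and 5.39 FPKM for g8451. At 6 and 12 h their VLC libraries still lay above their HC libraries, and neither gene was called. At 12 h g8450 had 274 and 291 FPKM in VLC, against 178 and 162 FPKM in HC. Gene g8451 had 175 and 190 FPKM in VLC at 12 h, against 95.8 and 97.4 FPKM in HC. At 24 h g8450 had 276 and 300 FPKM in VLC and 245 and 243 FPKM in HC, and g8451 had 206 and 210 FPKM in VLC and 200 and 196 FPKM in HC. The log2 change of g8450 at 24 h against 0 h was 5.39 ± 0.13 in VLC and 5.15 ± 0.13 in HC (SE; adjusted p = 2.9e-13 and 7.6e-13). At that time the ratios were small, with log2 VLC/HC of 0.23 ± 0.13 for g8450 and 0.07 ± 0.16 for g8451 (SE), neither called.

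ATP-citrate synthase g1998, which cleaves citrate in the cytosol to supply acetyl-CoA for lipid synthesis, was the only member downregulated in VLC/HC at 12 h as measured. It had 320 and 326 FPKM in VLC, against 659 and 658 FPKM in HC, with a log2 VLC/HC of -1.02 ± 0.08 (SE, adjusted p = 6.2e-08), or -1.61 against the median gene. At 24 h it had 96.6 and 92.9 FPKM in VLC, against 202 and 203 FPKM in HC, with a log2 VLC/HC of -1.09 ± 0.08 (SE, adjusted p = 5.3e-08). The libraries did not overlap at either time, and both courses were lower at 24 h than at 12 h. The citrate transporter g182 of the related set, annotated as a mitochondrial carrier, had 44.0 and 42.5 FPKM in VLC at 12 h, against 6.46 and 7.42 FPKM in HC, a log2 VLC/HC of 2.48 ± 0.11 (SE, adjusted p = 4.6e-10). At 0 h it had 187 and 195 FPKM, so at 12 h it was downregulated against 0 h in both courses, at -2.12 in VLC and -4.60 in HC. It was upregulated in VLC/HC also at 6 h (1.46) and at 24 h (1.13).

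NADH-dependent fumarate reductase g7715, which runs the succinate dehydrogenase step backwards, was upregulated in VLC/HC at 12 h and at 24 h. It had 50.0 and 54.5 FPKM in VLC at 12 h, against 18.6 and 18.9 FPKM in HC, and 42.8 and 46.2 FPKM in VLC at 24 h, against 15.1 and 14.9 FPKM in HC. The log2 VLC/HC was 1.43 ± 0.13 at 12 h (adjusted p = 2.8e-07) and 1.51 ± 0.13 at 24 h (adjusted p = 2.7e-07). Methylisocitrate lyase g8380, of the methylcitrate cycle that degrades propionate, was upregulated at 12 h (1.32 ± 0.16) and at 24 h (1.03 ± 0.16, and 0.95 without HC replicate 2). The homoaconitate hydratase family gene g5479 (1.15 ± 0.06) and the fumarate reductase or succinate dehydrogenase gene g1063 (1.18 ± 0.14) were upregulated at 12 h and not called at 24 h (SE; limma). Against the median gene none of these 4 was past 2-fold at 12 h, while g7715 remained so at 24 h.

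Complex I, the NADH dehydrogenase at the head of the chain, was the largest group. At 12 h 17 of its 18 genes lay above 0 in VLC/HC with a median of 0.43, and against the median gene 7 of 18 did, with a median of -0.15. As measured, 3 of the 18 were upregulated, or 16.7%, below the 27.6% of all genes. The one with the strongest change was g4915 (scaffold00145, positions 206177 to 209163), annotated as complex I of NADH:ubiquinone oxidoreductase, which had 30.8 and 28.7 FPKM in VLC, against 6.61 and 7.48 FPKM in HC, with a log2 VLC/HC of 1.94 ± 0.10 (SE, adjusted p = 1.4e-09) and 1.35 against the median gene. The VLC libraries lay near the 0 h level of 37.4 and 35.8 FPKM, and the HC libraries well below it, at -2.23 ± 0.10 on the log2 scale against 0 h (SE, adjusted p = 6.5e-11). At 24 h g4915 had 63.1 and 67.3 FPKM in VLC, against 61.9 and 61.6 FPKM in HC, with a log2 VLC/HC of 0.08 ± 0.10 (SE), and the VLC/HC ratio at 24 h minus that at 12 h was -1.86 (adjusted p = 1.7e-07).

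The other upregulated complex I genes at 12 h were g10125 and g875. Gene g10125 had 43.6 and 43.8 FPKM in VLC, against 19.99 and 19.2 FPKM in HC, with a log2 VLC/HC of 1.12 ± 0.08 (SE, adjusted p = 2.5e-08). Gene g875, annotated as partial, had 19.4 and 19.7 FPKM in VLC, against 5.76 and 6.36 FPKM in HC, with a log2 VLC/HC of 1.54 ± 0.12 (SE, adjusted p = 6.4e-08). Against the median gene they stood at 0.53 and 0.96. At 24 h no complex I gene was called, and the 18 ranged from -0.73 for g9165 (155 and 180 FPKM in VLC, against 273 and 282 FPKM in HC) to 0.84 for g9237 (102 and 113 FPKM in VLC, against 59.8 and 59.2 FPKM in HC). The type 2 NADH dehydrogenase g2358, a single protein that oxidizes NADH without pumping protons, stood at 0.51 ± 0.12 at 12 h and 0.33 ± 0.12 at 24 h (SE) and was not called at any time.

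Both alternative oxidases were upregulated at 24 h (all genes: 11.2%), and g8794 gave the strongest difference among respiratory genes. Gene g8794 (scaffold00308, positions 179704 to 181962) had 68.5 and 66.0 FPKM in VLC at 24 h, against 8.25 and 8.78 FPKM in HC, with a log2 VLC/HC of 2.84 ± 0.10 (SE, adjusted p = 1.5e-11). It entered the 24 h test through VLC alone, and with a minimum of 1 FPKM its adjusted p was 1.7e-11. Gene g363 (scaffold00009, positions 100526 to 103563), the more abundant isoform A, had 226 and 227 FPKM in VLC at 24 h, against 76.3 and 73.3 FPKM in HC, with a log2 VLC/HC of 1.59 ± 0.12 (SE, adjusted p = 3.9e-08). Neither overlapped between the courses, and these are the 2 alternative oxidase genes of the set.

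Their earlier courses differed. At 12 h g8794 had 69.4 and 73.1 FPKM in VLC and 40.9 and 46.0 FPKM in HC, both above the 12.0 and 12.3 FPKM of 0 h, with a log2 VLC/HC of 0.70 ± 0.10 (SE). At 12 h g363 had 399 and 379 FPKM in VLC and 382 and 352 FPKM in HC, with a log2 VLC/HC of 0.08 ± 0.12 (SE), so these libraries overlapped. From then on the VLC libraries of g8794 held their level while the HC libraries dropped below that of 0 h. At 24 h against 0 h g8794 was upregulated in VLC (2.38 ± 0.10) and stood at -0.46 ± 0.10 in HC, and g363 was at -0.12 ± 0.12 in VLC and downregulated in HC (-1.70 ± 0.12) (SE; limma). The ratio at 24 h minus that at 12 h was 2.14 for g8794 (adjusted p = 3.3e-08) and 1.501 for g363 (adjusted p = 3.2e-06), and 2.72 and 2.08 against the median gene. At 3 h, too, both genes were above HC without reaching 2-fold: g363 had 321 and 303 FPKM in VLC, against 209 and 155 FPKM in HC (0.79 ± 0.12), and g8794 had 19.6 and 19.6 FPKM in VLC, against 12.1 and 14.03 FPKM in HC (0.56 ± 0.10). At 6 h this remained for g8794 alone, with 18.4 and 20.6 FPKM in VLC, against 13.2 and 11.5 FPKM in HC (0.62 ± 0.10, adjusted p = 7.1e-04). Gene g363 had 112 and 93.1 FPKM in VLC at 6 h, against 107 and 99.0 FPKM in HC, with overlapping libraries (-0.01 ± 0.12, adjusted p = 0.98).

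Cytochrome c, the electron carrier of the pathway that the alternative oxidase bypasses, moved in the opposite direction at 24 h. Gene g4013 had 219 and 234 FPKM in VLC, against 458 and 460 FPKM in HC, with a log2 VLC/HC of -1.02 ± 0.07 (SE, adjusted p = 2.8e-08). At 12 h it had 161 and 159 FPKM in VLC, against 228 and 244 FPKM in HC, at -0.56 ± 0.07 as measured and -1.15 against the median gene. Both courses were below the 697 and 764 FPKM of 0 h at these times, and the libraries did not overlap. The 24 h call sits at the 2-fold limit and was lost without VLC replicate 1 (-0.97). The second gene, g9207 of the cytochrome c subfamily, was upregulated at 12 h with 42.0 and 40.5 FPKM in VLC, against 17.9 and 21.5 FPKM in HC (1.03 ± 0.13, adjusted p = 6.7e-06), stood at 0.91 without HC replicate 1 and at 0.45 against the median gene, and was not called at 24 h (-0.30 ± 0.13).

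**Figure D4:**
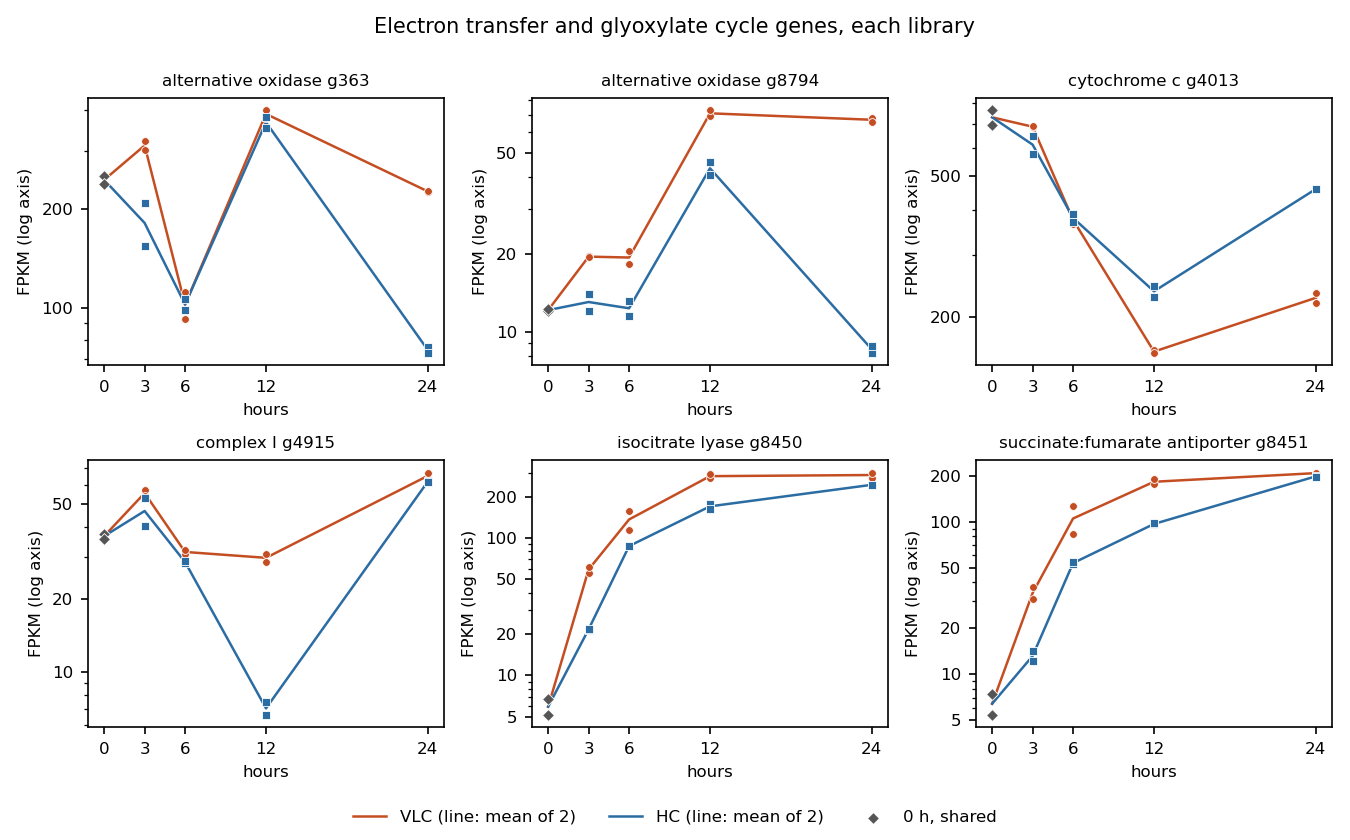
FPKM (log axis) of both alternative oxidases, cytochrome c g4013, complex I gene g4915, isocitrate lyase g8450 and the antiporter g8451 over 0 to 24 h, each point a library, lines through the means of the 2 libraries of VLC and of HC. The oxidases lie farthest apart at 24 h, g8794 is higher in VLC also at 3, 6 and 12 h and g363 at 3 h, g4915 has its gap at 12 h, and g8450 and g8451 part at 3 h and run close together at 24 h.

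Complexes III and IV and ATP synthase, the late steps of the chain, had no called gene in VLC/HC at any time among their 10 members. Over all genes, 32.0% were called at 12 h and 17.2% at 24 h. Among the ATP synthase genes only g4380 is annotated as mitochondrial. At 12 h the 3 complex IV genes had a median of 0.08 and the 5 ATP synthase genes of 0.02, below the median gene, so that relative to it they stood at -0.50 and -0.56. At 24 h all 3 complex IV genes and all 5 ATP synthase genes lay below 0, with medians of -0.26 and -0.30. Complex III subunit g8230, a part of the ubiquinol to cytochrome c reductase, had 247 and 246 FPKM in VLC at 24 h, against 361 and 379 FPKM in HC, a log2 VLC/HC of -0.58 ± 0.12 (SE, adjusted p = 7.7e-04). ATP synthase subunit gamma (g9317) had 441 and 461 FPKM in VLC, against 561 and 551 FPKM in HC, at -0.30 ± 0.08 (SE, adjusted p = 6.1e-03). Cytochrome c oxidase subunit 6b (g2638) had 227 and 248 FPKM in VLC, against 316 and 328 FPKM in HC, at -0.44 ± 0.08 (SE, adjusted p = 2.5e-04). The VLC and HC libraries of these genes did not overlap, at a time when 64.5% of all genes passed the adjusted p alone. Each difference was under 2-fold. With the adjusted p alone and no fold minimum, the rule chosen after seeing the data, 4 of 5 ATP synthase, 3 of 3 complex IV and 1 of 2 complex III genes were lower in VLC at 24 h and none was higher, beside 28.4% lower and 36.1% higher of all genes.

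The respiratory chain and ATP synthase subunits that the mitochondrion itself encodes were not looked at separately. A RefSeq gene table of the species lists 18 of them. None of their short symbols equalled a whole annotation or gene name used here. The annotations spell names out in words, so this comparison cannot show whether any of the 18 is in the set.

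The assembly and biogenesis factors build the complexes without being part of them. At 12 h 3 of the 7 tested were upregulated (all genes: 27.6%). These 7 had a median log2 VLC/HC of 0.86, but g4337, g7666, g9039 and g8348 entered through VLC alone, so the median leans on the filter. With a minimum of 1 FPKM all 8 were tested and ranged from 0.60 to 1.52 with a median of 0.90 and the same count of 3, while the complex I subunits ranged from -0.09 to 1.94. The upregulated genes were the complex I assembly factor g7666 (1.52 ± 0.17), the cytochrome c biogenesis protein g4337 (1.46 ± 0.16) and the COX11 homologue g9039 of complex IV assembly (1.45 ± 0.16), with adjusted p of 2.3e-06, 1.1e-06 and 1.2e-06. Gene g9039 had 26.1 and 27.2 FPKM in VLC at 12 h, against 9.71 and 8.61 FPKM in HC. Against the median gene the 3 stood at 0.93, 0.88 and 0.86, under 2-fold. Complex I intermediate-associated protein 30 (g804) had 1.63 and 1.66 FPKM at 0 h, and at 24 h 46.6 and 48.0 FPKM in VLC, against 19.8 and 19.1 FPKM in HC, an upregulation of 1.24 ± 0.13 (SE, adjusted p = 1.1e-06). It was the only assembly factor called at 24 h.

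Of the genes caught by name alone, g9470 (scaffold00330, positions 857103 to 858787) had the highest ratio of the whole set. It encodes the iron-sulfur subunit of the photosynthetic cytochrome b6-f complex and had 346 and 346 FPKM in VLC at 12 h, against 14.9 and 12.3 FPKM in HC, with a log2 VLC/HC of 4.58 ± 0.13 (SE, adjusted p = 1.5e-11). It was upregulated also at 3 h, with 44.9 and 40.8 FPKM in VLC, against 14.4 and 9.90 FPKM in HC (1.76 ± 0.13, adjusted p = 2.4e-06), and at 24 h, with 195 and 221 FPKM in VLC, against 40.4 and 39.2 FPKM in HC (2.35 ± 0.13, adjusted p = 2.8e-09). The adjacent gene g9471, 3758 bases away and with the same annotation, had 1130 and 1064 FPKM in VLC at 12 h, against 501 and 555 FPKM in HC, a log2 VLC/HC of 1.05 ± 0.09 (SE, adjusted p = 8.2e-08), 0.98 without HC replicate 1 and 0.47 against the median gene, where g9470 stood at 3.99. The less abundant gene of the pair was thus the one with the larger ratio, and in the VLC libraries at 12 h it was still below its neighbour. The remaining gene g4557, a SWI/SNF chromatin remodelling subunit, was tested only at 24 h, at 0.19 ± 0.10 (SE, adjusted p = 0.12).

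Across the set the CO2 effect itself differed between 12 and 24 h in 16 of 72 members as measured, 14 of them with a lower ratio at 24 h, beside 31.4% of all genes and a median gene at -0.58. Against the median gene it was 9 members, 4 higher and 5 lower, beside 17.6% of all genes. The 7 members that passed both ways were g363 and g8794 with a higher ratio at 24 h, and g4915, g9470, g4805, g946 and g5340 with a lower one. At 24 h the last 3 had ratios of -0.24, -0.26 and 0.34 and were not called, while g9470 was upregulated at both times. How many of all genes passed both ways was not counted.

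**Figure D5:**
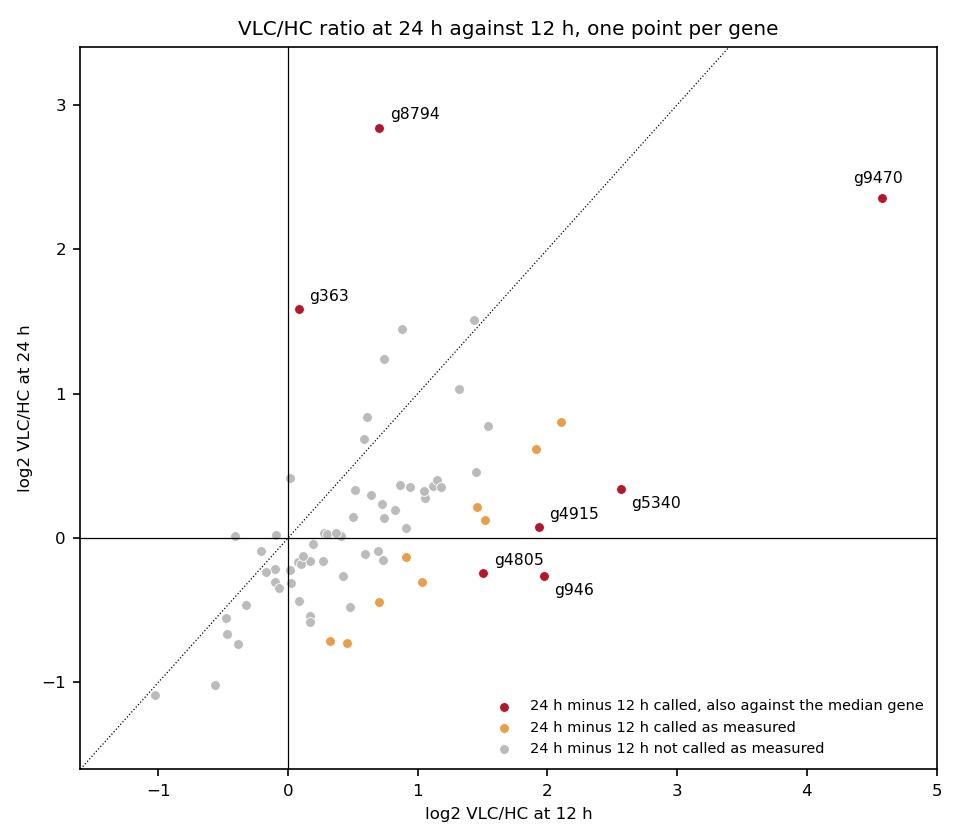
Log2 VLC/HC at 24 h against that at 12 h, one point per gene tested, with the line of equal ratios dotted; red points differ between the times as measured and against the median gene, orange points as measured only. The alternative oxidases g8794 and g363 lie above the line at 2.84 and 1.59 on the 24 h axis, and the pyruvate dehydrogenase genes g946 and g4805 far below it.

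Against 0 h members were called in both courses, which share the 0 h libraries, and time after 0 h and growth in the new medium cannot be told apart in them. At 3 h 10 members were up- and 2 downregulated in VLC of 67 tested, where 14.8% of all genes were called, and 6 and 2 in HC of 66, where 11.9% were. At 6 h it was 13 and 12 in VLC of 69 (all genes 37.6%) and 12 and 11 in HC of 68 (36.1%). At 12 h it was 21 and 8 in VLC of 71 (44.3%) and 13 and 17 in HC of 67 (58.8%), and against the median gene 18 and 8 in VLC (all genes 44.5%) and 22 and 14 in HC (51.5%). At 24 h it was 16 and 6 in VLC of 72 (35.7%) and 13 and 6 in HC of 71 (25.4%). As measured, the members' share of calls was 44.8% in HC at 12 h. This lay below the 58.8% of all genes. The HC course gave 12.1%, 33.8% and 26.8% for members at 3, 6 and 24 h, beside 11.9%, 36.1% and 25.4%. For VLC the members' shares were 17.9%, 36.2%, 40.8% and 30.6% at 3, 6, 12 and 24 h. All genes gave 14.8%, 37.6%, 44.3% and 35.7% at those times. Apart from HC at 12 h, the shares lay near each other, on either side, and their small differences were not tested.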

How the data were processed

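Poly(A) mRNA was sequenced in 18 libraries, 2 for each of 9 groups. The authors mapped reads on the IMET1 genome by TopHat2 (version 2.0.4 in the submitters' processing notes), kept uniquely mapped reads, and deposited FPKM of 9756 genes from Cufflinks (version 2.0.2 in those notes). FPKM of low genes move in steps, which were checked after scaling by the uniquely aligned read totals that the study lists. Only 60.5% of 732 values from 65 genes came within 0.1 of whole multiples of that gene's lowest step. Reads could therefore not be recovered and no count test was run. The deposited files hold no depth, and the read totals listed by the study were used for that check of steps only.

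Log2(FPKM + 1) was fitted with limma 3.58.1 in R 4.3.3, with a trend of variance over mean and all 9 groups in 1 model of the 9665 genes averaging 1 FPKM or more in some group. P-values were adjusted (Benjamini-Hochberg) within each comparison over genes averaging 10 FPKM or more in either group. A call needed an adjusted p of at most 0.05 and at least 2-fold. For values against the median gene, the median log2 ratio over the tested genes was taken off before both rules. The model pools the spread of a gene over all groups, and p-values cover only the spread between these libraries. The model was tested on simulated data. Python 3.11.15, numpy 2.4.6, pandas 2.3.3 and matplotlib 3.10.9 were used for tables and plots.

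Members, roles and lists were chosen with earlier results of these data known. Genes are named when called in VLC/HC at any time (up to 30 by size), when highest in their role, when highest or lowest at 12 or 24 h in a role with 3 or more tested genes, or when annotated as citrate synthase, aconitate hydratase, alternative oxidase or cytochrome c; g4915 was added. Genes g1639, g1987, g3543, g750, g1751 and g881 and those of the related set were named after their values were seen. Alternatives were a minimum of 1 FPKM, no FPKM minimum, a pseudocount of 0.1, only the groups compared, no trend, the median gene at 0, at least 1.5-fold, the replicate number as a block and each library left out; no fold minimum, and the left-out libraries against the median gene, were added after seeing the data.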

Additional observations from a re-analysis of the deposited data

Results flagged for a closer look

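The VLC/HC ratio of 7 genes differed between 12 and 24 h by a direct test of the difference in limma, both as measured and against the median gene. It was higher at 24 h for the alternative oxidases g8794 (2.84 at 24 h and 0.70 at 12 h, a difference of 2.14) and g363 (1.59 and 0.08, a difference of 1.501). It was lower at 24 h for the pyruvate dehydrogenase genes g4805 (-0.24 and 1.51, a difference of -1.75) and g946 (-0.26 and 1.97, a difference of -2.23), the kinase g5340 (0.34 and 2.57, a difference of -2.23), complex I gene g4915 (0.08 and 1.94, a difference of -1.86) and the chloroplast gene g9470 (2.35 and 4.58, a difference of -2.22). Against the median gene the differences ran from -1.65 to 2.72, with adjusted p of at most 6.5e-03. For g5340 the HC libraries at 12 h, at 1.04 and 3.92 FPKM, were far apart on the log2 scale. The share of all genes that passed both ways was not counted.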

How the results depend on the processing

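With at least 1.5-fold in place of 2-fold, the called members numbered 5 at 6 h, 34 at 12 h and 18 at 24 h in VLC/HC, 27 in VLC at 3 h against 0 h, 21 in HC at 3 h against 0 h, 38 in HC at 24 h against 0 h, and 34 for the ratio at 24 h minus that at 12 h. The share of all genes called at 1.5-fold was not counted, so these numbers cannot be read as particular to the members. With no fold minimum, chosen after seeing the data, the called members numbered 10 at 3 h, 9 at 6 h, 57 at 12 h and 42 at 24 h in VLC/HC, beside 14.8%, 12.2%, 79.9% and 64.5% of all genes. With the median gene at 0 they numbered 10 at 12 h and 9 for the difference between the times, and HC at 12 h against 0 h gave 22 up and 14 down in place of 13 and 17. Leaving out 1 library gave 0 to 2 at 6 h, 17 to 20 at 12 h and 8 to 9 at 24 h. The replicate block left the count at 12 h at 20. Same-numbered VLC and HC libraries of a time, which are of different cultures, did not deviate together (correlations of -0.039 to 0 over 8328 genes). Between times the correlations ran from -0.1995 (0 h with VLC at 6 h) to 0.1604 (VLC at 3 h with VLC at 6 h). Whether a number follows 1 culture over time was not settled by these values. For the named genes, 1402 of 1449 values under other settings kept their direction and side of the threshold, and 870 of 899 with a library left out; none reversed. The exceptions other than left-out libraries came from setting the median gene to 0, apart from 2 gained calls with a pseudocount of 0.1. Ratios near 2-fold lose their call most easily, among them g10046 at 6 h and g4013 at 24 h. Read totals of the libraries were used only to check the steps of low FPKM, and in no test. Cultures were sampled repeatedly, while the model treats all 18 libraries as independent; which culture gave which library is not given in the sources used here.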
